A study of Mus musculus with 36 samples.

Results

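The genes described here were strongly lower with the MEK inhibitor PD03 in mouse embryonic stem cells. This held at 48 h on soft and stiff gels, in serum and in serum + LIF. A gene was taken where its mean CPM, its counts scaled to a common library total, was at least 6 times higher without PD03 than with it. The ratio was formed after adding 0.5 CPM to both means, and it had to hold in all 4 pairs of groups at 48 h, soft and stiff substrate in serum and in serum + LIF, with at least 10 CPM in each group without PD03. Of 49671 genes, 41 met both limits, and 36 remained once families already known as feedback or early targets of the pathway, and a few others, were set aside by the start of their symbol (Spry, Spred, Dusp, Etv, Egr, Fos, Ier, Dnmt and Col). The 5 genes set aside that way were Spry4, Etv4, Egr1, Spred1 and Dusp6. Values of PD03-treated and untreated libraries chose the 36 genes, so their fall under PD03 is a description and was not tested.

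The cells were mouse embryonic stem cells labelled 129m wt, and all 36 libraries carry that one genotype. They were grown on fibronectin-coated StemBond hydrogels, polyacrylamide gels with a cofactor that tethers matrix protein covalently, made soft or stiff at a single intermediate tethering strength, or on tissue culture plastic. Cells on soft and stiff gels were lysed at 24 h in serum + LIF. At 48 h they were lysed in 4 media, which were serum alone, serum with LIF, serum with PD03 and serum with both, whereas plastic was sampled at 48 h in serum + LIF. Each of the 11 groups held 3 libraries, except soft serum + PD03 at 48 h, which held 6.

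Fibroblast growth factor made by the cells acts through its receptors, the RAS and RAF proteins and the kinases MEK and ERK, and ERK changes transcription of its target genes in the nucleus. In mouse embryonic stem cells this cascade opens the way out of the naive state, which is why MEK inhibitors are used to hold cells in it, whereas LIF sustains self-renewal through STAT3. Substrate stiffness reaches the nucleus through adhesions, the actin cytoskeleton and the factors SRF and YAP. The comparisons below ask whether genes that were lower under the MEK inhibitor also differed with stiffness, with plastic, with LIF and with time. Whether ERK controls these genes directly was not tested. The choice of genes formed none of these contrasts, but it required high levels in the gel libraries at 48 h without PD03 and low ones with it, and of the contrasts below only stiffness at 24 h has none of those libraries.

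Library totals ran from 10405696 to 26635239 counts. The labels name no separate cultures, so p-values measure the spread between libraries, which may be technical. All 8 embryonic stem cell markers checked were present, with a summed level of 3320 to 4824 CPM, against 26.8 to 96.2 CPM for 8 fibroblast markers. Of these 8, Nanog (766 to 898 against 162 to 289 CPM) and Sall4 were higher in every library with PD03 than in any without. Utf1 was lower in every one (96.4 to 165 against 463 to 604 CPM), and the rest of the stem cell markers overlapped. Of 30 markers of other cells (fibroblast, primitive endoderm, mesoderm and primitive streak, trophoblast and neural), 22 were detected in every library, and the 8 at 0 in some included Lum, Mesp1 and Neurog2, at 0 in 24, 20 and 27 of the 36. Among the fibroblast markers Col1a1 reached the highest level (9.83 to 79.4 CPM). Thy1, the next, reached 13.6 CPM and was lower in every PD03 library (1.77 to 3.79 against 6.38 to 13.6 CPM). Differences in the fibroblast sum, here and below, may therefore rest largely on Col1a1, and a sum without it was not formed. Summed trophoblast markers were higher in the 15 libraries with PD03 than in the 21 without (62.8 to 140 against 15.3 to 43.5 CPM), as were 3 of the 5 singly (Hand1, Krt7 and Tfap2a). Of 6 primitive endoderm markers Dab2 was higher in every PD03 library (65.4 to 117.5 against 20.4 to 29.6 CPM) and Sox7 lower, and the summed level without Dab2 overlapped (13.1 to 21.1 against 15.8 to 34.3 CPM). Neural markers summed lower with PD03 (50.9 to 65.1 against 66.9 to 111 CPM), with Pax6 lower in every PD03 library. Mesoderm and primitive streak markers did too (6.92 to 9.76 against 11.8 to 22.04 CPM), with T and Eomes lower and Gsc higher. The part of these markers in the results was not tested, and in bulk RNA fewer cells that express a gene and less of its RNA per cell cannot be told apart. The library identifiers in the labels fall into 3 SLX sets, and the 24 h and plastic libraries all belong to the first set. At 48 h, soft libraries belong to the third set except 2 of 6 in serum + PD03, and stiff libraries to the second except 1 of 3 in serum + LIF. Stiffness at 24 h was therefore compared within 1 set, whereas at 48 h stiffness and set nearly coincide. Since the count table's columns do not say which library of a mixed group is which sample, a set term was fitted under all 45 possible placements.

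By the geometric mean of the 4 ratios the genes ranked Lef1 (31.4), Gbx2 (30.1), Slc7a7 (17.2), Trh (15.1), Ccnd2 (14.9), Soga3 (13.7), Zfp423 (12.7), Jph4 (12.01), Bnc2 (11.9) and Myrf (11.6), and the other 26 lay between Enpp3 (11.1) and Capn3 (6.49). Lef1 encodes a nuclear partner of beta-catenin in Wnt signalling, Gbx2 a homeobox factor that can sustain self-renewal, Slc7a7 the light chain of a cationic amino acid transporter and Trh the precursor of thyrotropin-releasing hormone. Ccnd2 encodes cyclin D2, which drives entry into S phase, Jph4 a junctophilin, Zfp423 and Bnc2 zinc-finger proteins and Myrf a factor known for its role in myelination. Just inside the ratio limit stood Foxp1, with a lowest ratio of 6.01, and Enox1, with 6.07, and just outside Gli1, with 5.89, and Sned1, with 5.85. Just inside the floor stood Atcay, with 10.1 CPM in its lowest group, and Jph4, with 10.4, and just outside Sp5, with 8.44, and Slc23a1, with 8.14.

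The start regions of the 2 genes with the largest ratios, of Trh, the gene with the most regular stiffness difference, and of Jph4, which holds both spellings of the ETS motif, are shown as examples. Each runs 5′ to 3′ along the gene from 250 bases before to 50 bases after a RefSeq start on GRCm38.p6. Capitals mark the motifs found on either strand. Lef1 lies on the plus strand (chr3:131110047-131110346), and the window's start site was 174 bases from the start of the GENCODE gene. Other Lef1 windows are not shown. Their start sites lay 148, 2320 and 45823 bases from the gene start. The one at 148 bases holds a GC box, the one at 2320 a GC box and a CArG box, and the one at 45823 CAGGAAG and an E-box. Gbx2 (chr1:89931127-89931426), Trh (chr6:92244601-92244900) and Jph4 (chr14:55116886-55117185) lie on the minus strand.
Lef1: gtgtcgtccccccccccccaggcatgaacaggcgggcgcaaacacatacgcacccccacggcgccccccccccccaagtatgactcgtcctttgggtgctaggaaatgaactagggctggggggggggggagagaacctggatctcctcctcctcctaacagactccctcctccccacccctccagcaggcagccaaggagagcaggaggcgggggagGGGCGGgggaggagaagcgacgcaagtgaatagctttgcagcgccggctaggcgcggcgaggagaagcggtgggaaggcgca
Gbx2: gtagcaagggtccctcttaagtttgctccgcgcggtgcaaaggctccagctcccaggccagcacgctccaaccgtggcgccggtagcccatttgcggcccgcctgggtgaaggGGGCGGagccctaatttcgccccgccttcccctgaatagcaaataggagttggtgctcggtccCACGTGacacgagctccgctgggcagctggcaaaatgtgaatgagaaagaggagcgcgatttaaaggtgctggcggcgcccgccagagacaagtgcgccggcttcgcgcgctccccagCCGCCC
Trh: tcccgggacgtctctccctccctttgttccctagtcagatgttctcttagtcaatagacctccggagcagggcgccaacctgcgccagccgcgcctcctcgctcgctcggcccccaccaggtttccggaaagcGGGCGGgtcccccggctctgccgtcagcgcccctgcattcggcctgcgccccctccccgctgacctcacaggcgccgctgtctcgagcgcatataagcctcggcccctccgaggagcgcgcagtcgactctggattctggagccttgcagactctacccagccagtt
Jph4: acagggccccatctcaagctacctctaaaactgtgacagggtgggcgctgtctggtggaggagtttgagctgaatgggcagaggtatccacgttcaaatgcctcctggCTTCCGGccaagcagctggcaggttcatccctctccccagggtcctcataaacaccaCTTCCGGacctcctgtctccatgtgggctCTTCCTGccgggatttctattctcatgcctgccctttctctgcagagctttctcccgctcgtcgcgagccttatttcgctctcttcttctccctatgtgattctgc
RefSeq windows of 300 bases were found for 27 of the 36 genes, 40 windows in all, some of which overlap. The GC box (GGGCGG) was in 65.0% of them, beside 35.7% of all 32851 windows in the table. The ETS spelling CAGGAAG was in 25.0%, beside 13.3% of all, and the spelling CCGGAAG, which cannot match at the same position, in 2 of the 40 windows, beside 8.86%. The E-box CACGTG was in 7.50% beside 7.15%, the CRE TGACGTC in 1 of the 40 windows beside 3.21%, and the CArG box of the serum response element in 1 beside 1.63%. The AP-1 motif TGANTCA was in 0 of the 40 windows, beside 7.81% of all. These shares are descriptions of letters in short windows and were not tested.

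Grouped by the proteins' known roles, assigned once the genes were known, 11 of the 36 encode transcription factors (Lef1, Gbx2, Zfp423, Bnc2, Myrf, Pou3f1, Tcf15, Wt1, Bcl11a, Foxp1 and Myc). Another 4 are secreted (Trh, Bmp4, Ccdc3 and Coch), 4 are transporters or channels (Slc7a7, Slc39a14, Slc27a2 and Kcnj3), 4 are enzymes (Pdk1, Enpp3, Enox1 and Capn3) and 4 are best known from neurons (Ina, Crmp1, Jph4 and Atcay). Adam23, Spn and Robo4 act at the cell surface, Ccnd2 in the cell cycle and Esrp1 in epithelial splicing, and Soga3, Ankrd34a, Pdzd4 and the long noncoding RNA Halr1 make up the rest. Per kilobase of exon, the level over the 4 groups without PD03 was highest for Myc (105 CPM per kb), Tcf15 (94.6) and Trh (76.7) and lowest for Jph4 (1.77) and Bcl11a (1.79). Exons of 16 of the genes overlap a gene on the other strand, among them Lef1, Gbx2, Ccnd2, Esrp1, Pou3f1, Kcnj3, Bmp4 and Ina, and those of Soga3, Foxp1 and Capn3 overlap a gene on the same strand. How the counting used strand is not given in the sources used here, so the counts of these genes may hold reads of a neighbour.

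From here on, levels are CPM scaled by edgeR's TMM factors. With PD03 the genes kept between 1.82% (Lef1, stiff, serum) and 16.7% (Foxp1, soft, serum) of their level in the matching group, with a median of 9.12%. Lef1 lay between 45.7 and 77.4 CPM in the 12 libraries without PD03 that the rule used and between 0.748 and 1.74 CPM in the 15 with it. Gbx2 lay between 63.9 and 79.0 CPM without and between 1.28 and 2.64 CPM with PD03. At the other end of the list Myc, the growth-promoting factor, was at a mean of 286 CPM without and 42.6 CPM with PD03, and Foxp1, a forkhead factor, at 347 and 51.0 CPM. The rule did not use 9 libraries, from 24 h and from plastic. Their lowest library lay above the highest PD03 library for each gene, by between 3.06 times (Kcnj3) and 21.2 times (Gbx2). The PD03 libraries are those in which the genes were chosen to be low, so this gap is no independent result about the list. The same gap was not computed for all genes. The share left under PD03 is close to the inverse of the ratio that chose the genes, so its substrate differences are a description and were not tested. Its median over the list was 10.1% on soft and 9.20% on stiff in serum, and 8.36% and 8.54% in serum + LIF. The 2 largest substrate gaps in these shares among the genes named by ratio were those of Ccnd2 in serum, 5.67% on soft and 10.3% on stiff, and Jph4 in serum, 6.87% on soft and 2.82% on stiff. The stiff share of Jph4 rests on serum + PD03 libraries at 0.961, 0.286 and 0.0642 CPM. Their SD, 0.467 CPM, exceeded their mean, 0.437 CPM.

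**Figure D1:**
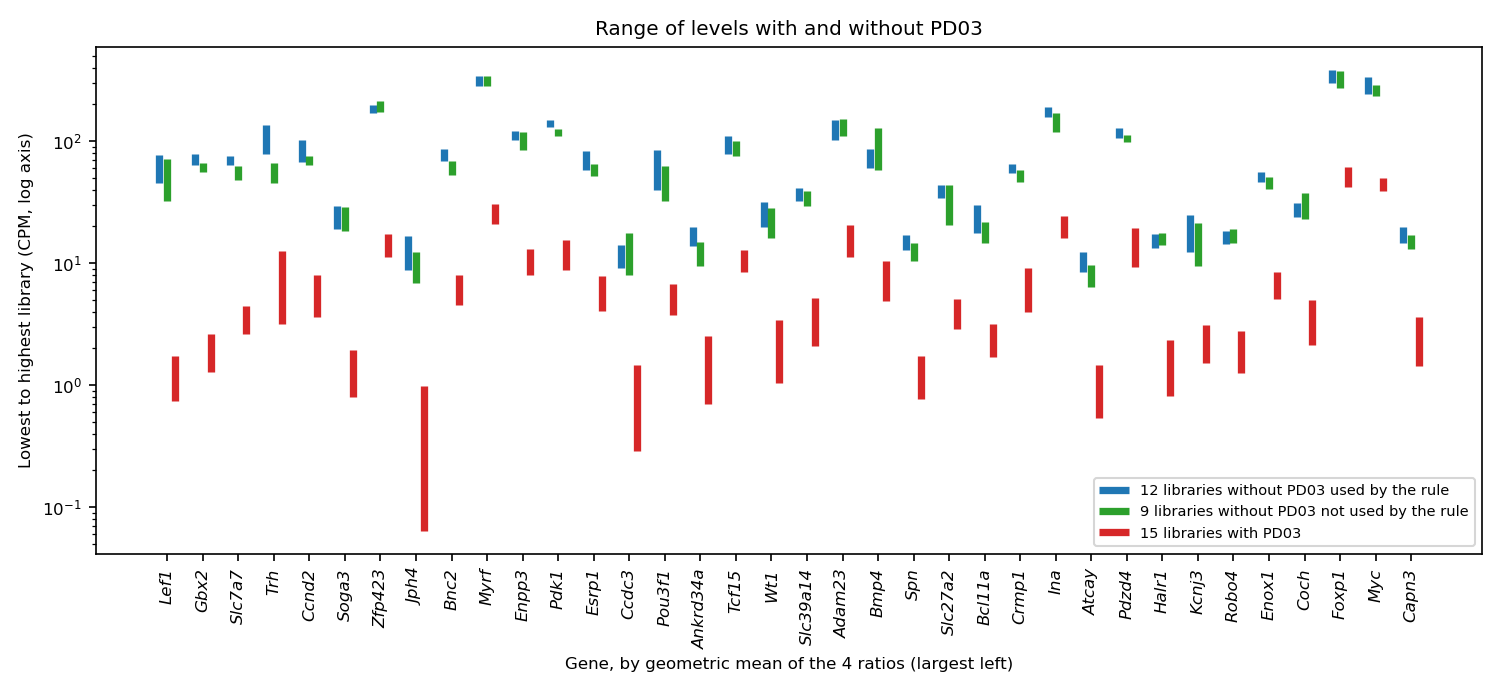
Range from the lowest to the highest library in CPM, on a log axis, for each of the 36 genes, in the 12 libraries without PD03 that the rule used (blue), the 9 without PD03 that it did not use (green) and the 15 with PD03 (red). The green bars stand above the red ones for every gene, and Lef1 and Gbx2, at the left, show the widest gap. The red libraries are among those that chose the genes, by their low levels.

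At 24 h in serum + LIF, soft and stiff could be compared within 1 SLX set. There 6 of the 36 genes differed (adjusted p under 0.05 by edgeR's quasi-likelihood test over 17702 genes). Of all genes tested 3.55% did so, and 5.12% of the 8453 genes with at least 10 CPM in each group the rule used. Pou3f1, Lef1, Zfp423 and Myc, all transcription factors, were lower on soft, and Trh and Adam23 were higher. Over the whole list 28 of 36 genes had a negative soft minus stiff log2 change, with a median of -0.10 beside -0.0016 for all genes. In the same libraries summed trophoblast markers lay between 24.8 and 25.8 CPM on soft and between 42.4 and 43.5 CPM on stiff, fibroblast markers between 26.8 and 39.1 CPM on soft and 55.7 and 61.96 CPM on stiff, and neural markers between 105 and 111 CPM on soft and 86.7 and 93.97 CPM on stiff. Embryonic stem cell markers summed to between 3936 and 4215 CPM on soft and 3701 and 3800 CPM on stiff. The part of these shifts in the results was not tested.

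Pou3f1, also called Oct6, is a POU factor of the formative state that follows the naive one. It stood at 35.4, 32.0 and 33.5 CPM on soft and at 48.7, 51.5 and 56.9 CPM on stiff at 24 h. The groups did not overlap, and the fall on soft was -0.64 ± 0.09 (log2, SE, n = 3 and 3, edgeR adjusted p = 1.29e-06). Lef1 stood at 39.6, 34.5 and 32.1 CPM on soft and at 44.7, 47.4 and 42.8 CPM on stiff. All soft libraries lay below all stiff ones, by -0.35 ± 0.09 on the log2 scale (edgeR adjusted p = 0.0123). Zfp423 was at 178, 180 and 176 CPM on soft and at 212, 194 and 203 CPM on stiff, a change of -0.19 ± 0.05 (edgeR adjusted p = 0.0336). Myc was at 233, 238 and 232 CPM on soft and at 265, 289 and 255 CPM on stiff, a change of -0.20 ± 0.06 (edgeR adjusted p = 0.0395). For these 2 factors the groups were close but did not overlap. Trh was at 65.1, 54.1 and 66.2 CPM on soft and at 52.6, 45.9 and 50.6 CPM on stiff, a rise of 0.31 ± 0.09 (edgeR adjusted p = 0.0431). Adam23, a disintegrin-family surface protein, was at 153, 147 and 152 CPM on soft and at 125, 125 and 130 CPM on stiff, a rise of 0.25 ± 0.07 (edgeR adjusted p = 0.0355). Both genes were higher in every soft library than in any stiff one.

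Leaving out each of the 6 libraries in turn kept the Pou3f1 call every time (highest edgeR adjusted p = 9.03e-05). The calls of Lef1, Trh, Zfp423, Adam23 and Myc were kept in 3, 2, 1, 1 and 1 of 6 such fits, with a highest edgeR adjusted p of 0.138 for Lef1 (without the third soft library), 0.219 for Trh (without the second stiff library), 0.230 for Zfp423 (without the first stiff library), 0.0958 for Adam23 and 0.320 for Myc (both without the second stiff library), and DESeq2 gave 0.0576 for Trh and 0.0565 for Myc.

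**Figure D2:**
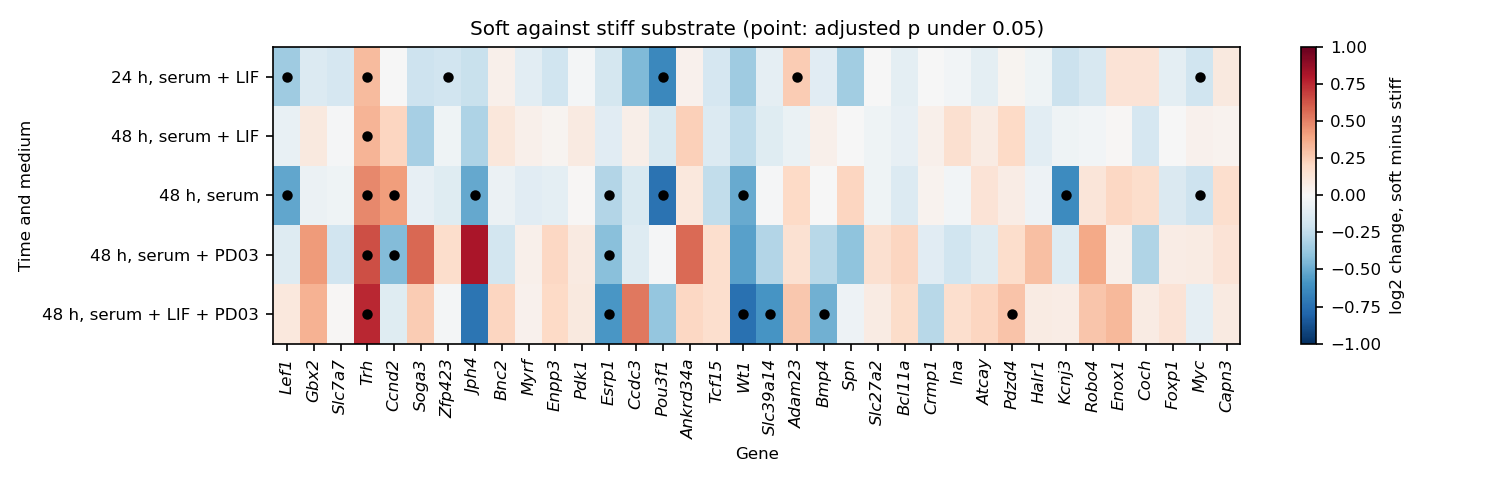
Log2 change, soft minus stiff, of the 36 genes (columns, in order of their ratio) at 24 h and in the 4 media at 48 h (rows), in red where higher and in blue where lower on soft. Black points mark an edgeR adjusted p under 0.05, and the Trh column carries a point in all 5 rows.

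At 48 h in the same medium, serum + LIF, 1 of the 36 genes differed, beside 0.780% of all genes tested and 1.28% of those above the floor. Trh stood at 134, 120 and 135 CPM on soft and at 103, 114 and 90.2 CPM on stiff, a rise of 0.34 ± 0.09 (log2, SE, n = 3 and 3, edgeR adjusted p = 0.0374). Every soft library exceeded every stiff one, but the call held in only 2 of 6 fits with a library left out, and the highest edgeR adjusted p was 0.340 without the third stiff library. Pou3f1, at a mean of 42.3 ± 2.03 CPM (SD) on soft and 47.1 ± 1.38 on stiff, changed by -0.15 ± 0.09 (edgeR adjusted p = 0.548), and Lef1, at 49.8 ± 3.19 and 52.6 ± 2.38 CPM, by -0.08 ± 0.09 (edgeR adjusted p = 0.820). The median change over the list was -0.0055, beside -0.0028 for all genes. The difference between the 2 times was itself tested as an interaction, and none of the 36 genes passed with edgeR or with DESeq2, beside 0.254% of all genes with edgeR. At an unadjusted p under 0.05 there were 9 genes, the smallest edgeR adjusted p of which was 0.0867, for Pou3f1 (0.49 ± 0.13). Here and below, no share of all genes is given at that unadjusted limit, so such counts are no result about the list.

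In serum without LIF at 48 h, 9 of the 36 genes differed, 2 higher and 7 lower on soft, beside 4.85% of all genes tested and 7.55% of those above the floor. The lower ones were the transcription factors Pou3f1, Lef1, Wt1 and Myc, the potassium channel gene Kcnj3, Jph4 and Esrp1, an epithelial regulator of splicing. Trh and Ccnd2 were higher. Pou3f1 stood at 49.2, 44.7 and 52.0 CPM on soft and at 82.5, 84.5 and 76.2 CPM on stiff, a change of -0.74 ± 0.08 (log2, SE, n = 3 and 3, edgeR adjusted p = 1.44e-08). Lef1 stood at 57.1, 45.7 and 56.0 CPM on soft and at 77.4, 76.9 and 73.2 CPM on stiff, a change of -0.52 ± 0.08 (edgeR adjusted p = 1.61e-05). In both genes the lowest stiff library was far above the highest soft one. Kcnj3 was at 18.6, 12.3 and 16.4 CPM on soft and at 24.4, 24.0 and 24.6 CPM on stiff (-0.63 ± 0.12, edgeR adjusted p = 0.000445). Wt1, the Wilms tumour factor, was at 19.9, 21.4 and 22.3 CPM on soft and at 31.5, 27.6 and 30.9 CPM on stiff (-0.50 ± 0.11, edgeR adjusted p = 0.00304). Esrp1 was at 62.7, 62.2 and 67.2 CPM on soft and at 77.0, 83.1 and 75.8 CPM on stiff (-0.30 ± 0.06, edgeR adjusted p = 0.000792). None of these 3 genes overlapped between substrates. Here summed trophoblast markers lay at 15.37 to 17.87 CPM on soft and 25.66 to 26.25 CPM on stiff. Fibroblast markers lay at 28.13 to 34.26 CPM on soft and 49.89 to 58.52 CPM on stiff. Neural markers lay at 83.29 to 86.34 CPM on soft and 66.87 to 75.81 CPM on stiff. Stem cell markers lay at 3829 to 4017 CPM on soft and 3477 to 3625 CPM on stiff. Mesoderm and streak sums were also higher on soft, and primitive endoderm sums overlapped. The part of these shifts in the calls was not tested.

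Ccnd2 stood at 98.1, 98.8 and 93.4 CPM on soft and at 73.7, 76.3 and 66.9 CPM on stiff in serum, a rise of 0.42 ± 0.07 (log2, SE, edgeR adjusted p = 1.70e-05). Trh stood at 114, 104 and 121 CPM on soft and at 77.9, 84.7 and 80.7 CPM on stiff, a rise of 0.48 ± 0.09 (edgeR adjusted p = 0.000137). In both genes all soft libraries were above all stiff ones. Myc and Jph4 passed with smaller margins, at -0.20 ± 0.06 (edgeR adjusted p = 0.0291) and -0.51 ± 0.15 (edgeR adjusted p = 0.0369), and kept the call in 3 and 1 of 6 fits with a library left out, with a highest edgeR adjusted p of 0.326 without the second soft library and 0.176 without the first stiff library. The other 7 genes kept it in all 6. With a term for SLX set, 0 to 3 of the 36 genes passed over the 45 placements, Pou3f1 in 27 of them. Over all 45, Pou3f1 ranged from -1.21 to -0.28, Trh from -0.02 to 0.80 and Lef1 from -1.32 to 0.02.

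With PD03 the genes were near the bottom of their range. In serum + PD03, 3 of the 36 genes (8.33%) differed between soft and stiff, near the share of all genes tested (5.55%) and of those above the floor (8.09%). Summed trophoblast markers lay between 62.8 and 73.8 CPM on soft and 100.1 and 114 CPM on stiff, and fibroblast markers between 35.1 and 46.5 CPM on soft and 72.7 and 85.5 CPM on stiff. Trh lay between 7.75 and 12.7 CPM on soft (median 10.9, n = 6) and at 6.86, 6.87 and 6.29 CPM on stiff, a rise of 0.65 ± 0.13 (log2, SE, edgeR adjusted p = 0.000592). Esrp1 lay between 4.61 and 5.85 CPM on soft (median 5.26) and at 6.73, 6.51 and 7.84 CPM on stiff, a change of -0.42 ± 0.09 (edgeR adjusted p = 0.00256). Ccnd2 lay between 4.46 and 6.59 CPM on soft (median 5.52) and at 7.56, 7.94 and 6.81 CPM on stiff, a change of -0.43 ± 0.11 (edgeR adjusted p = 0.00662). The soft and stiff libraries did not overlap in any of the 3 genes. Without PD03, in serum, Ccnd2 had been higher on soft, so its substrate difference had the opposite sign in the presence of the inhibitor. The change of sign involves the contrast that chose the genes and was not tested. Esrp1 lost the call without the third stiff library (edgeR adjusted p = 0.0576) and Ccnd2 without the second (0.105).

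In serum + LIF + PD03, 6 genes passed (16.7%), beside 7.61% of all genes tested and 10.9% of those above the floor. Summed trophoblast markers lay between 71.7 and 80.4 CPM on soft and 121 and 140 CPM on stiff, and fibroblast markers between 32.5 and 46.6 CPM on soft and 88.98 and 96.2 CPM on stiff. Trh was at 5.39, 6.48 and 7.79 CPM on soft and at 4.42, 3.15 and 4.02 CPM on stiff, a rise of 0.75 ± 0.17 (log2, SE, n = 3 and 3, edgeR adjusted p = 0.00196). Esrp1 was at 4.61, 4.29 and 4.03 CPM on soft and at 6.81, 5.90 and 6.72 CPM on stiff, a change of -0.59 ± 0.11 (edgeR adjusted p = 0.000144). Both genes thus differed between substrates in the same direction in serum, serum + PD03 and serum + LIF + PD03, in each case without overlap of libraries. Wt1 was at 1.99, 2.09 and 1.74 CPM on soft and at 3.38, 3.44 and 3.02 CPM on stiff, a change of -0.74 ± 0.20 (edgeR adjusted p = 0.0139). Slc39a14, a zinc and metal ion transporter, was lower on soft by -0.59 ± 0.17 (edgeR adjusted p = 0.0238), and the signalling ligand Bmp4 by -0.48 ± 0.13 (edgeR adjusted p = 0.0153). Pdzd4 was higher by 0.29 ± 0.09 (edgeR adjusted p = 0.0460). These 4 genes kept the call in 4, 2, 3 and 3 of 6 fits with a library left out, with a highest edgeR adjusted p of 0.0674 for Wt1 (without the third soft library), 0.159 and 0.133 for Slc39a14 and Bmp4 (both without the first soft library) and 0.535 for Pdzd4 (without the third stiff library). Trh and Esrp1 kept it in all 6. With a term for SLX set 0 to 4 genes passed in serum + PD03, and 0 to 5 did when LIF was present as well. In these 2 media Esrp1 stayed negative under all 45 placements (-0.58 to -0.31 and -0.81 to -0.42) and Trh stayed positive (0.28 to 0.84 and 0.25 to 1.07).

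**Figure D3:**
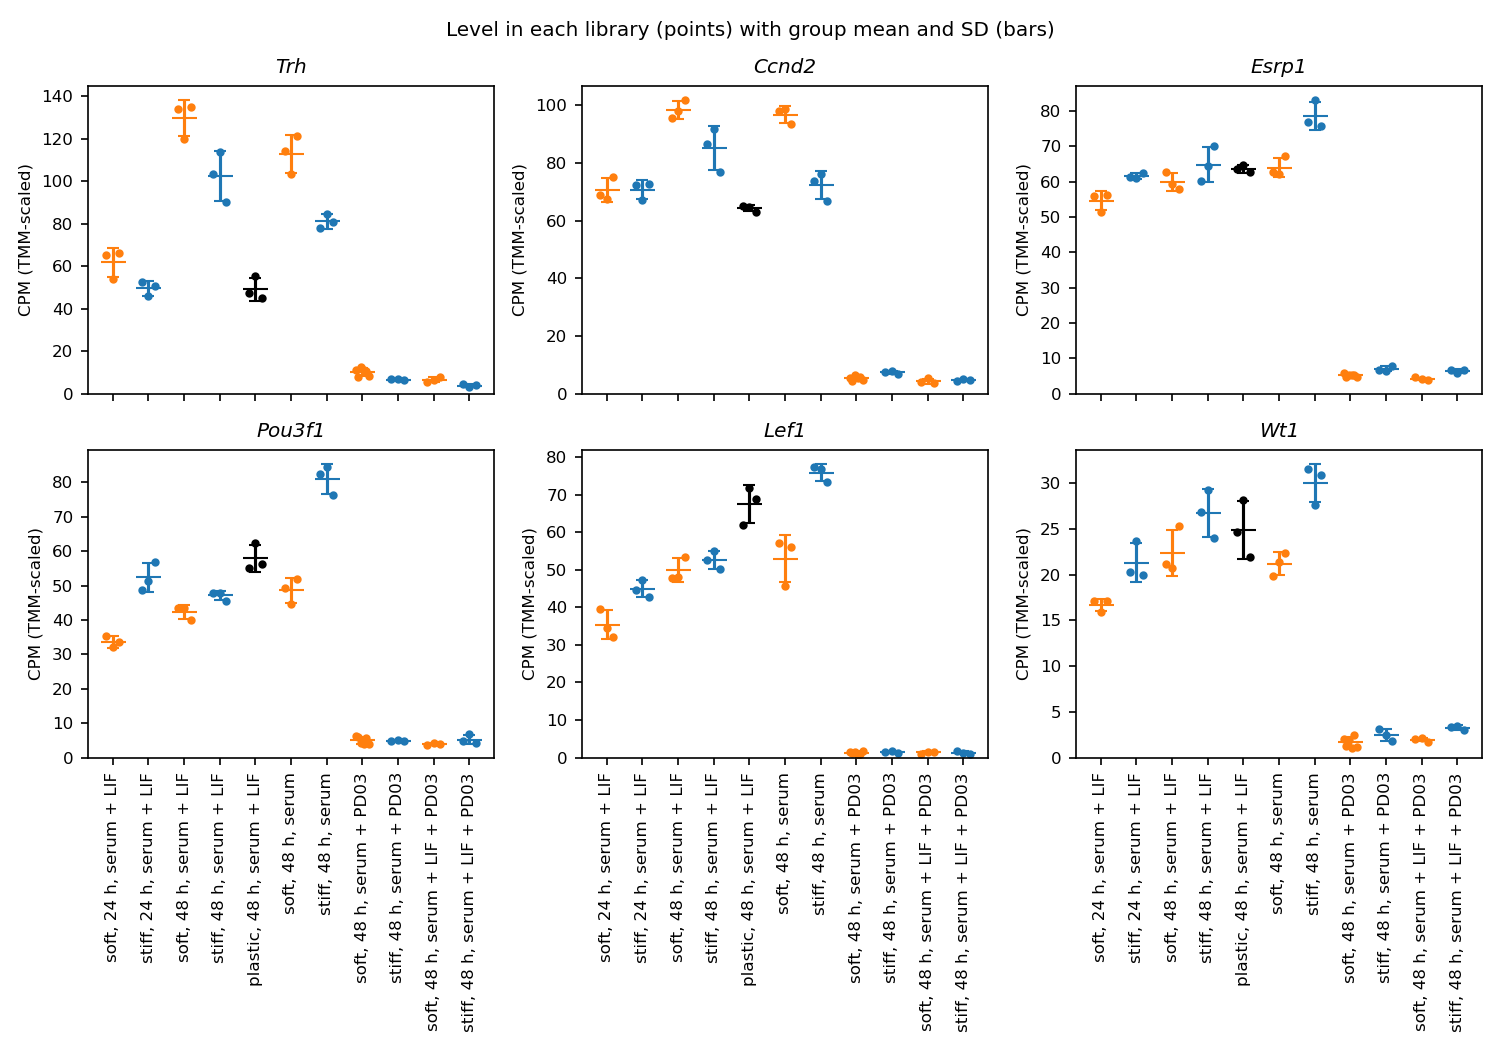
Levels in CPM of Trh, Ccnd2, Esrp1, Pou3f1, Lef1 and Wt1 in each library (points), with group means and SD (bars), on soft (orange), stiff (blue) and plastic (black). Trh was higher on soft than on stiff in all 5 conditions, Pou3f1 and Lef1 stood highest on stiff in serum at 48 h, and the PD03 groups lie near 0 on the linear axis.

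Cells on tissue culture plastic allowed the gels to be set against the usual culture surface at 48 h in serum + LIF. On soft gels 14 of the 36 genes differed from plastic, 11 higher and 3 lower, beside 11.8% of all genes tested and 17.6% of those above the floor. On stiff gels 11 differed, 9 higher and 2 lower, beside 5.54% and 8.10%. The medians over the list were 0.15 and 0.13, beside -8.52e-05 and 0.00075 for all genes. The gel libraries compared here are among those in which the genes were chosen to be high, and the plastic ones are not, so a positive median is no independent result about the list. Summed fibroblast markers lay at 71.0 to 80.6 CPM on plastic, 31.2 to 36.1 CPM on soft and 39.1 to 45.9 CPM on stiff. Stem cell markers lay at 3320 to 3424, 3864 to 3998 and 3743 to 3812 CPM. Mesoderm and streak and primitive endoderm sums were lower on plastic than on both gels. Trophoblast and neural sums overlapped between plastic and stiff. The part of these shifts in the calls was not tested. Trh stood at 47.5, 55.3 and 45.0 CPM on plastic, below every gel library in the same medium, and was higher on soft by 1.39 ± 0.09 (log2, SE, n = 3 and 3, edgeR adjusted p = 6.50e-17) and on stiff by 1.05 ± 0.09 (edgeR adjusted p = 3.40e-12). Ankrd34a, at 9.41, 10.9 and 10.5 CPM on plastic, was at 19.9, 16.6 and 18.3 CPM on soft and at 13.8, 18.9 and 14.0 CPM on stiff (0.83 ± 0.13 and 0.60 ± 0.13, edgeR adjusted p = 4.41e-06 and 0.00207). Ccnd2, at 65.1, 64.9 and 63.2 CPM on plastic, was at 95.7, 98.0 and 102 CPM on soft and at 86.7, 91.8 and 77.0 CPM on stiff (0.61 ± 0.07 and 0.40 ± 0.07, edgeR adjusted p = 1.44e-09 and 4.91e-05). In these 3 genes the gel libraries did not overlap with plastic. Soga3 passed on stiff, at 28.9, 29.4 and 26.9 CPM beside 22.1, 19.4 and 18.2 CPM on plastic (0.51 ± 0.11, edgeR adjusted p = 0.00207), and its change on soft was 0.17.

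Gbx2, Slc7a7, Bmp4 and the neuronal gene Atcay were also higher than plastic on both gels, Bnc2, Ina, Pdzd4 and Myc on soft, and Adam23 on stiff, with log2 changes from 0.17 to 0.55. Lef1 and Pou3f1 went the other way. Lef1 was at 62.0, 71.8 and 68.8 CPM on plastic and lower on soft (-0.44 ± 0.09, edgeR adjusted p = 0.000182) and on stiff (-0.36 ± 0.08, edgeR adjusted p = 0.00390). Pou3f1 was at 55.2, 62.5 and 56.3 CPM on plastic and lower on soft (-0.46 ± 0.09, edgeR adjusted p = 0.000169) and on stiff (-0.30 ± 0.09, edgeR adjusted p = 0.0278). Both lay above every gel library in this medium. Kcnj3 was lower on soft (-0.39 ± 0.13, edgeR adjusted p = 0.0336). Pou3f1 on stiff and Kcnj3 on soft each kept the call in 1 of 6 fits with a library left out, with a highest edgeR adjusted p of 0.178 (without the second plastic library) and 0.191 (without the second soft library), as did Ankrd34a on stiff in 5 of 6 (0.0761 without the second stiff library). Plastic libraries all came from the first SLX set and the soft ones compared with them all from the third. With a set term 0 to 4 genes passed for soft and 1 to 4 for stiff, Trh on stiff under all 45 placements (0.87 to 1.20).

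**Figure D4:**
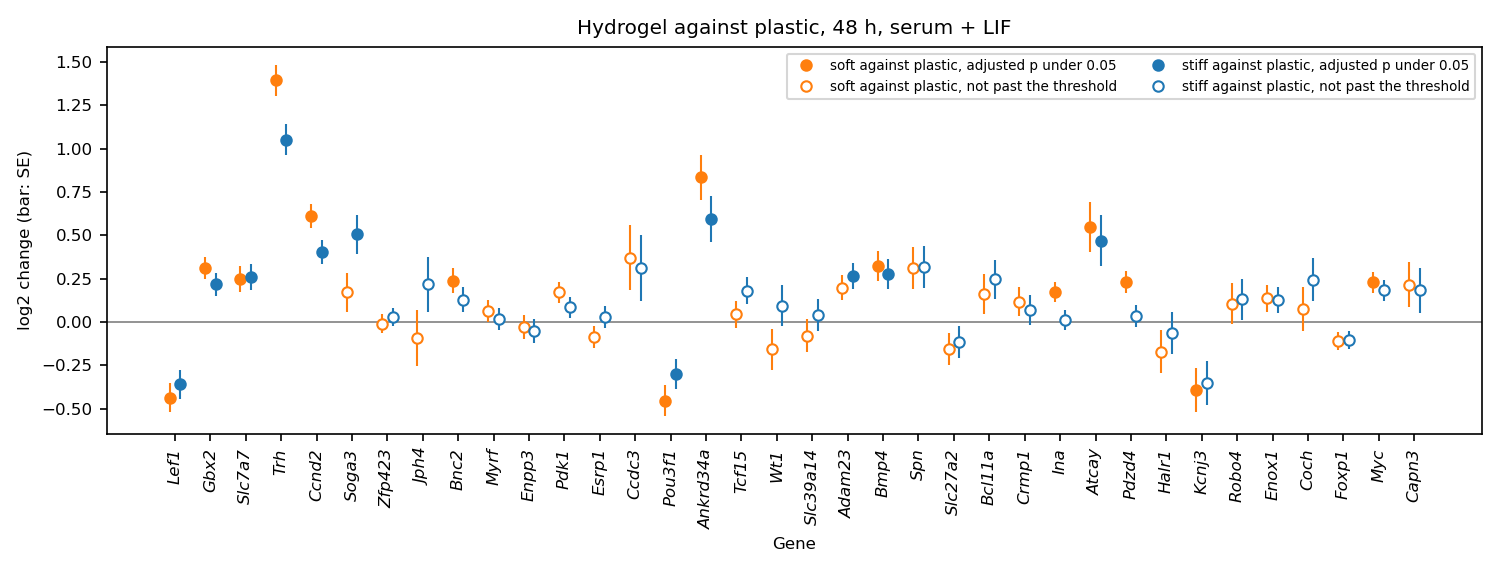
Log2 change from tissue culture plastic at 48 h in serum + LIF for each of the 36 genes, on soft (orange) and stiff (blue), with SE bars; filled points have an edgeR adjusted p under 0.05. Trh, Ankrd34a and Ccnd2 lie highest, and Lef1, Pou3f1 and Kcnj3 lie below 0 on both gels.

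Adding LIF to serum, without PD03, was followed separately on each gel. On soft none of the 36 genes passed with edgeR, beside 0.0169% of all genes tested. At an unadjusted p under 0.05 there were 4 (Gbx2, Trh, Pou3f1 and Bmp4), and DESeq2 called 1, Gbx2 (0.24 ± 0.06 by edgeR, DESeq2 adjusted p = 0.0439). On stiff 5 genes differed, 1 higher and 4 lower with LIF, beside 1.41% of all genes tested and 2.32% of those above the floor. Pou3f1 fell from 82.5, 84.5 and 76.2 CPM in serum to 47.9, 48.0 and 45.5 CPM in serum + LIF, a change of -0.78 ± 0.09 (log2, SE, n = 3 and 3, edgeR adjusted p = 1.35e-08). Lef1 fell from 77.4, 76.9 and 73.2 CPM to 52.6, 55.0 and 50.2 CPM (-0.53 ± 0.08, edgeR adjusted p = 5.53e-05). Kcnj3 fell from 24.4, 24.0 and 24.6 CPM to 15.6, 17.5 and 16.6 CPM (-0.55 ± 0.13, edgeR adjusted p = 0.00890). The libraries of the 2 media did not overlap in these 3 genes. Esrp1 fell by -0.27 ± 0.06 (edgeR adjusted p = 0.00764) and Trh rose by 0.34 ± 0.09 (edgeR adjusted p = 0.0349). Esrp1, Kcnj3 and Trh kept the call in 4, 5 and 1 of 6 fits with a library left out, with a highest edgeR adjusted p of 0.116 and 0.0650 (both without the first stiff serum + LIF library) and 0.320 (without the second). Pou3f1 and Lef1 kept it in all 6 and under all 45 placements of SLX set.

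Whether LIF acted differently on the 2 gels was tested as an interaction, and 1 of the 36 genes passed, beside 0.0847% of all genes. For Pou3f1 the LIF change was -0.20 ± 0.09 on soft and -0.78 ± 0.09 on stiff, a difference of 0.58 ± 0.12 (log2, SE, edgeR adjusted p = 0.0375). The call held in 3 of 12 fits with a library left out, with a highest edgeR adjusted p of 0.188 without the second soft serum + LIF library, and in 4 of 45 placements of SLX set, over which the difference ranged from 0.56 to 0.60. Lef1 (0.44 ± 0.12, edgeR adjusted p = 0.155) and Kcnj3 (0.59 ± 0.18, edgeR adjusted p = 0.207) had differences of the same sign that did not pass.

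**Figure D5:**
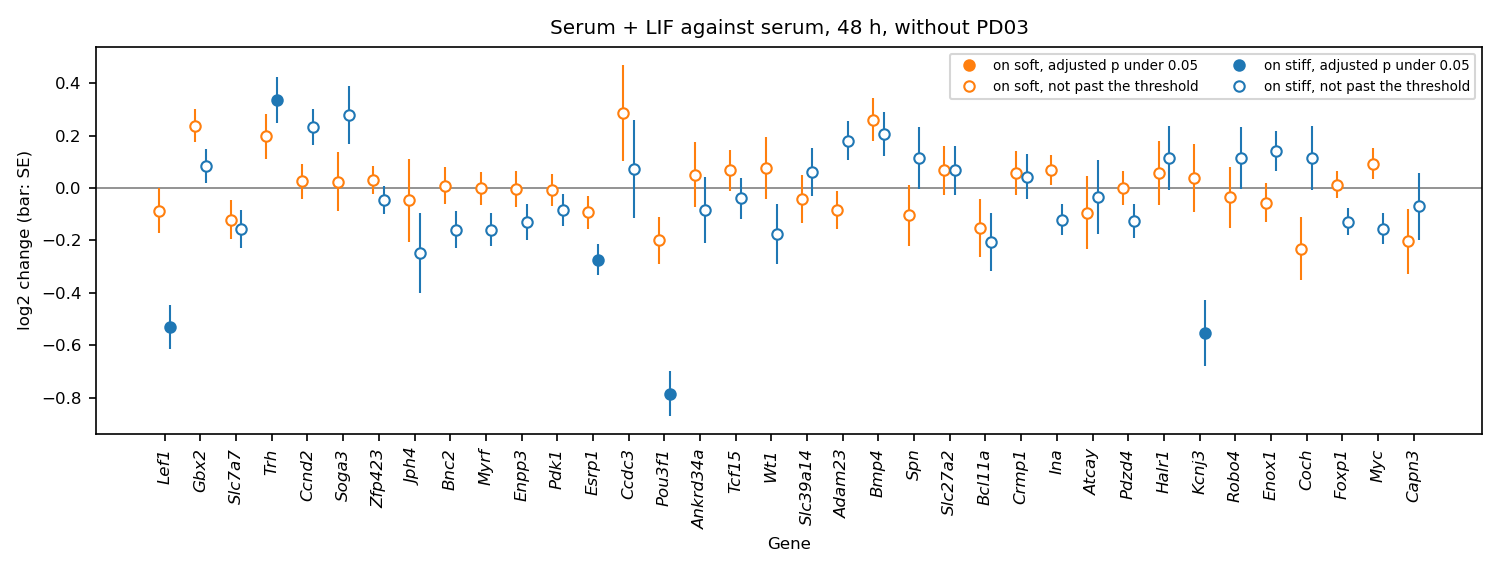
Log2 change with LIF (serum + LIF minus serum, 48 h, no PD03) for each of the 36 genes on soft (orange) and stiff (blue), with SE bars; filled points have an edgeR adjusted p under 0.05. All filled points are blue, and Pou3f1, Lef1 and Kcnj3 on stiff lie lowest.

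From 24 h to 48 h in serum + LIF many of the genes rose, as did a large share of all genes. On soft 23 of the 36 differed, 20 higher and 3 lower at 48 h, beside 24.4% of all genes tested and 37.8% of those above the floor. On stiff 15 differed, 13 higher and 2 lower, beside 25.6% and 39.5%, so on stiff the share was near that of genes at similar levels. The median changes of the list were 0.27 on soft and 0.17 on stiff, beside -0.03 and -0.01 for all genes. Here too the 48 h libraries are among those in which the genes were chosen to be high, and the 24 h ones are not. Trh rose from 65.1, 54.1 and 66.2 CPM to 134, 120 and 135 CPM on soft (1.07 ± 0.09, log2, SE, edgeR adjusted p = 7.98e-13) and from 52.6, 45.9 and 50.6 CPM to 103, 114 and 90.2 CPM on stiff (1.04 ± 0.09, edgeR adjusted p = 5.24e-13). Slc27a2, which activates and carries very long chain fatty acids, rose from 21.8, 21.1 and 24.4 CPM to 35.1, 37.2 and 42.4 CPM on soft and from 23.0, 24.1 and 20.6 CPM to 43.3, 34.8 and 39.9 CPM on stiff (0.77 ± 0.10 and 0.80 ± 0.10, edgeR adjusted p = 4.53e-08 and 3.97e-09). Neither gene's 24 h libraries overlapped with those at 48 h. Ina, an intermediate filament protein of neurons, rose on soft by 0.54 ± 0.06 (edgeR adjusted p = 9.07e-10), and Bnc2 rose on stiff by 0.42 ± 0.07 (edgeR adjusted p = 1.06e-05).

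Bmp4, a ligand of the BMP pathway, went down. It fell from 105, 97.9 and 121 CPM to 86.6, 77.2 and 72.5 CPM on soft (-0.45 ± 0.08, log2, SE, edgeR adjusted p = 3.11e-05) and from 127, 117 and 106 CPM to 80.6, 73.5 and 74.8 CPM on stiff (-0.61 ± 0.08, edgeR adjusted p = 6.12e-08). The 2 times did not overlap on either gel. Coch, an extracellular protein, fell on soft by -0.33 ± 0.12 (edgeR adjusted p = 0.0458) and Adam23 by -0.22 ± 0.07 (edgeR adjusted p = 0.0214), with overlapping libraries for Adam23, and Zfp423 fell on stiff by -0.17 ± 0.05 (edgeR adjusted p = 0.0161). Coch, Adam23 and Zfp423 kept the call in 1, 2 and 4 of 6 fits with a library left out, with a highest edgeR adjusted p of 0.293 (without the first soft 24 h library), 0.246 (without the second soft 48 h library) and 0.128 (without the first stiff 48 h library). Time and SLX set coincide fully on soft, and on stiff except for 1 of the 3 libraries at 48 h. On soft a set term therefore rests on other groups. With that term 0 to 7 genes passed on soft and 5 to 11 on stiff, Trh, Slc27a2, Ina, Bnc2 and Bmp4 on stiff under all 45 placements.

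Other genes around the pathway were read from short lists. Their counts between soft and stiff stand beside 3.55% of all genes called at 24 h and, at 48 h, 0.780% (serum + LIF), 4.85% (serum), 5.55% (serum + PD03) and 7.61% (both added). Of 27 genes for pathway components, from Fgf4 and its receptors to the ERK kinases and their RSK substrates, none differed between soft and stiff at 24 h with edgeR, and none in serum + LIF at 48 h (4 and 2 at an unadjusted p under 0.05). In serum + PD03 1 was higher and 3 lower on soft, and in serum + LIF + PD03 2 were higher and 5 lower. The receptor Fgfr2 (log2 fold changes of -0.26 and -0.22), its adaptor Frs2 (-0.16 and -0.31) and the kinase Rps6ka3 (-0.18 and -0.22) were lower on soft in both PD03 media and are named for that, after their values were seen. Of 25 feedback and early genes that the choice of genes leaves out, 5 were lower on soft at 24 h and none was higher, with a median of -0.21. These were Fosl2 (-0.79 ± 0.10, edgeR adjusted p = 2.21e-07), Dusp14 (-0.57 ± 0.12, edgeR adjusted p = 0.00236), Dusp4 (-0.45 ± 0.09, edgeR adjusted p = 0.00120), Dusp5 (-0.42 ± 0.10, edgeR adjusted p = 0.00665) and Dusp6 (-0.31 ± 0.08, edgeR adjusted p = 0.0126). Fosl2 encodes an AP-1 subunit, and the Dusp genes encode phosphatases, several of which inactivate ERK. At 48 h none of the 25 passed with edgeR in serum + LIF (4 at an unadjusted p under 0.05, median -0.12) and 4 were lower in serum (median -0.25). In each PD03 medium 2 were higher and 5 lower, with medians of the other sign, 0.06 without LIF and 0.18 with it. Fosl2 was among the lower ones in both.

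Of 12 naive pluripotency genes 9 were higher on soft at 24 h and none was lower. At 48 h in the same medium only Tbx3 was higher, 1 of the 12. Without LIF 9 were higher, with PD03 in its place 7, and with both 10, and none was lower. Of 7 formative and primed genes 1 was higher at 24 h and 2 lower, the 2 being Pou3f1 and Lef1. At 48 h 1 was higher in serum + LIF, 3 were lower in serum, none passed in serum + PD03 with edgeR (and none at an unadjusted p under 0.05), and 3 were higher in serum + LIF + PD03. Of 16 SRF and YAP targets tested, 14 were lower on soft at 24 h, with a median of -0.59, and at 48 h 6 were lower in serum + LIF, with a median of -0.25. Without LIF 13 were lower, with PD03 in its place 14, and with both 15, and none was higher.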

How the data were processed

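RNA of 36 libraries was sequenced, and the authors deposited 1 table of raw counts per gene, as whole numbers with no normalization. Per the study's methods and the labels, reads were aligned to GRCm38 (mm10) with STAR 2.5.2a and counted with HTSeq, whose strand setting is not given in the sources used here. Column names matched groups by the labels, but carry no replicate numbers, so library numbers are names only. All 36 genes passed edgeR's filter on low counts, which kept 17702 of 49671 genes (99.9% of counts; 13380 had none). Counts were fitted in 1 model with a coefficient per group (edgeR 4.0.16, R 4.3.3, TMM factors of 0.963 to 1.05, quasi-likelihood test, Benjamini-Hochberg over all genes, threshold 0.05), checked on simulated counts. Replicates differed beyond sampling noise (chi-square per gene 2.22 to 13.4 over 45 pairs), so none was merged. Symbols and positions came from GENCODE vM21 (GRCm38) for 49326 of 49671 IDs, and start sequences from RefSeq.

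The 36 genes, their roles and the gene lists were chosen with earlier results of these data known. Named with values are the 10 genes with the largest ratio, genes past the threshold for stiffness, at most 3 per direction in other comparisons, and those at the rule's edges. Alternatives were DESeq2 1.42.0, DESeq2 size factors, no filter, only the groups compared, each library left out, a term for SLX set and other limits of the rule. The count of ERK pathway components called between soft and stiff in serum at 48 h is not reported here.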

Additional observations from a re-analysis of the deposited data

Results flagged for a closer look

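Pou3f1 responded to LIF differently on the 2 gels at 48 h without PD03, by an interaction of 0.58 on the log2 scale (0.5846 unrounded), with LIF changes of -0.20 ± 0.09 on soft and -0.78 ± 0.09 on stiff (SE, edgeR adjusted p = 0.0375). The call held in only 3 of 12 fits with a library left out and in 4 of 45 placements of SLX set, and DESeq2 gave no adjusted p. Adam23 had 1 of its 6 soft serum + PD03 libraries apart from the rest, at 20.4 CPM beside 14.1 to 16.3 CPM in the other 5. That gap took 0.660 of the group's range, above Dixon's 95% limit for 6 values. Such a gap arises by chance in about 1 in 20 groups, and 1 of 36 genes showed one.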

How the results depend on the processing

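No paired analysis was possible because the columns of the count table carry no replicate numbers. Of 954 alternative values for the 94 called changes of the 36 genes, SLX set term aside, 780 kept the call, 174 lost it and none changed sign, and 1 more had no DESeq2 adjusted p. With the SLX set term, 71 of the 94 kept the call under the placement with the lowest adjusted p for each, but 12 did under that with the highest, where 64 lost it and 18 changed sign. They were Trh (-0.017) and Jph4 (0.044) in serum, Slc39a14 (0.0090) in serum + LIF + PD03, and, for soft against plastic, Lef1 (0.0042), Bnc2 (-0.026), Pou3f1 (0.034), Bmp4 (-0.0005), Ina (-0.013) and Kcnj3 (0.0018). For 48 h against 24 h on soft they were Lef1 (-0.0008), Ccnd2 (-0.058), Pou3f1 (-0.020), Wt1 (-0.0072), Bmp4 (0.064), Spn (-0.038), Crmp1 (-0.0002), Kcnj3 (-0.0033) and Coch (0.0039), all on the log2 scale. The term rests on few libraries, since only 2 groups span 2 sets each.

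With that term the count of the 36 genes called fell as low as 0 for stiffness at 48 h in serum + LIF, serum, serum + PD03 and serum + LIF + PD03, for soft against plastic, for 48 h against 24 h on soft and for stiffness by LIF. It reached at most 3 in serum, 4 for soft against plastic, 7 for 48 h against 24 h on soft and 1 for stiffness by time. For stiff against plastic it ran from 1 to 4, and its lowest value was 2 for LIF on stiff and 5 for 48 h against 24 h on stiff. Without a filter on low counts it was 1 for LIF on soft, 1 for stiffness by time and 3 for stiffness by LIF. DESeq2 called 1 for LIF on soft and 0 for stiffness by LIF, where Pou3f1 had no adjusted p, and a fit of only the groups compared called 1 for stiffness by time. The cause of these moves was not tested. The share of all genes called is not given for these fits or for those below with a library left out.

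With 1 library left out, the counts ran from 2 to 4 for stiffness at 24 h, and at 48 h from 0 to 1 in serum + LIF, 7 to 10 in serum, 2 to 4 in serum + PD03 and 3 to 6 in serum + LIF + PD03. They ran from 9 to 14 for soft and 5 to 10 for stiff against plastic, 2 to 6 for LIF on stiff, 18 to 21 for time on soft, 9 to 14 for time on stiff, 0 to 3 for stiffness by time and 0 to 1 for stiffness by LIF, and were 0 for LIF on soft. The rule gave 33 to 37 genes with a library left out, 57 at a ratio of 5, 17 at a ratio of 8 and 35 with TMM-scaled library sizes. With at least 10405696 counts per library, levels near 1 CPM under PD03 rest on 10 or more counts. Single PD03 libraries lay lower, down to 0.0642 CPM for Jph4 and 0.29 CPM for Ccdc3, and these rest on fewer.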
